A study of Mus musculus with 12 samples.

Results

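The 10 CC chemokine ligands Ccl2, Ccl3, Ccl4, Ccl5, Ccl6, Ccl7, Ccl8, Ccl9, Ccl12 and Ccl24 were followed in RNA-seq of tumor-associated macrophages (TAMs). They were taken by name as a gene family and make up 10 of the 55401 genes counted in each of 2 tables. All 10 passed the filter on low counts in both. TAMs were sorted from subcutaneous tumors of B16-F10, a mouse melanoma cell line, grown in C57BL/6 mice, by a gate that the study's methods give as CD45+CD11b+Ly6C-Ly6G-F4/80+. In the genotype experiment, 3 WT samples (AMPKfl/fl) were set against 3 AMPK-KO samples (AMPKfl/flLyz2cre/cre), in which Cre is driven by the myeloid gene Lyz2 in macrophages and other myeloid cells and not in TAMs alone. The methods place these tumors at day 15, and both genotypes carry the floxed AMPK allele. In the stage experiment, 3 late-stage samples (day 15) were set against 3 early-stage samples (day 8), all 6 of the genotype WT. The labels do not say that samples of a group came from separate mice, so p-values measure the spread among the samples, which may be technical.

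CC chemokines are small secreted proteins that draw leukocytes along a gradient by binding G protein-coupled receptors of the CCR family. Ccl2, Ccl7 and Ccl12 act mainly on Ccr2, the receptor by which monocytes leave the bone marrow and enter tissues and tumors. Ccl3, Ccl4 and Ccl5, of which Ccl3 and Ccl5 act on Ccr1, attract T cells, NK cells and macrophages. Ccl6 and Ccl9 are rodent chemokines of myeloid cells that act on Ccr1, mouse Ccl8 acts on Ccr8, and Ccl24 acts on Ccr3 of eosinophils.

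The libraries held 71019494 to 84470374 counts. Prkaa1, which encodes the catalytic subunit AMPKα1, was at 4535 to 5165 counts in WT and 3285 to 3467 in AMPK-KO (log2 fold change −0.60, edgeR adjusted p = 2.3e-04), so about 66.0% of its WT level was still counted. The characteristics of AMPK-KO replicates 2 and 3 write Lyz3cre and Lyz4cre in place of Lyz2cre. Lyz2 itself was at 671 to 975 counts in WT and 676 to 1088 in AMPK-KO, against 88212 to 249165 in the stage samples, so the libraries labelled AMPKfl/fl, like those of the Cre carriers, were far below the stage samples for this gene. Lyz2 thus goes against the label AMPKfl/fl, which names no Cre, while Prkaa1 goes with the labels, so in every genotype comparison below WT means the libraries labelled AMPKfl/fl, and whether they carry Cre or differ in source was not tested. The counts of 4 genes of the Y chromosome (Uty, Kdm5d, Ddx3y and Eif2s3y) summed to 9229 to 12183 in the genotype experiment, 3435 to 4035 in early-stage and 0 to 4 in late-stage samples. The study's methods state female mice, which the counts of the genotype and early-stage samples go against. Stage and this difference between the samples therefore cannot be told apart in any stage result below. Macrophage markers were high throughout, with 9 markers summing to 9381 CPM (counts scaled to a common library size) or more in every library.

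Of the 10 members, 9 lie in a pair of groups on chromosome 11 of GRCm38 (GENCODE M21). One group, spanning 81.2 kb, holds Ccl2 (chr11:82035571-82037453), Ccl7, Ccl12 and Ccl8 (chr11:82115185-82116799). The other, spanning 138.9 kb, holds Ccl5 (chr11:83525778-83530518), Ccl9, Ccl6, Ccl3 and Ccl4 (chr11:83662584-83664683), and Ccl24 stands alone on chromosome 5 (chr5:135569937-135573049, minus strand). Promoter sequence was matched by symbol for 5 of the 10 members in RefSeq on GRCm38.p6, namely Ccl12, Ccl8, Ccl9, Ccl6 and Ccl3. The 150 bases before the start of 4 of them are shown, as they form 2 neighbor pairs, Ccl12 with Ccl8 and Ccl6 with Ccl9. By the test given below, Ccl12 alone of the first pair was called lower in AMPK-KO and Ccl8 alone at the late stage. In the second pair both genes were called lower in both experiments. Capitals mark TATAAA (the TATA box letters, on either strand) and the longest run that a gene shares with its neighbor in the pair, and all 4 are written 5′ to 3′ on the gene's own strand. Ccl12 is chr11:82101695-82101844 and Ccl8 is chr11:82115035-82115184, both on the plus strand, and Ccl9 is chr11:83578637-83578786 and Ccl6 is chr11:83593088-83593237, both on the minus strand.
Ccl12: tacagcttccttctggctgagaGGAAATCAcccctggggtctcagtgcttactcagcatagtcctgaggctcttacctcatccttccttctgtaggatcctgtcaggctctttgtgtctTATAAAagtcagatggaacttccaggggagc
Ccl8: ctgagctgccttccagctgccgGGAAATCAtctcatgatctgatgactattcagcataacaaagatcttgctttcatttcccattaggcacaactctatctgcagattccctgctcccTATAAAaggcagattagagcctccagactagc
Ccl9: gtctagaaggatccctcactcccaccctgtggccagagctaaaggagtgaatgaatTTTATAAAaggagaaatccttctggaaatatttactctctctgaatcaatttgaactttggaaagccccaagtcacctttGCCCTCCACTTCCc
Ccl6: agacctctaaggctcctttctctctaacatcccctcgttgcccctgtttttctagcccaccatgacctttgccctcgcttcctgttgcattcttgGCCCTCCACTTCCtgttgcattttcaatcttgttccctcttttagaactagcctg

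In the 250 bases before the start, Ccl12 and Ccl8 aligned over 243 columns, of which 148 (60.9%) were identical, the highest local alignment score of the 10 pairs that the 5 promoters make. TATAAA began 31 bases before the start of Ccl12 and 32 before that of Ccl8, and the 8-base run ggaaatca began 128 bases before the start in both. Ccl9 and Ccl6 shared the 13-base run gccctccacttcc, which began 14 bases before the start of Ccl9 and 55 before that of Ccl6. TATAAA was in 3 of the 5 promoters, against 12.4% of the 32851 windows of the same length searched. Of the letters bound by known factors, searched on both strands, ACTTCC (the core of an ETS site, as PU.1 binds) was in 4 of 5, against 19.7% of all windows, and the Ccl12 promoter held 2 matches. TGANTCA, an AP-1 site, was in 1 of 5, Ccl9, against 6.75%. No match was found in the 5 windows to the NF-κB pattern GGGA and TCC parted by 3 bases (3.86% of all windows), TTC and GAA parted by 4 bases (the STAT6 site, 5.85%), GAAA and GAAA parted by 2 (the interferon element ISRE, 2.98%) or TTGCNNAA (C/EBP, 9.56%). These matches describe letters only.

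Levels between genes were compared as CPM per kilobase of exon. In WT TAMs, Ccl7 (861), Ccl6 (842), Ccl2 (725) and Ccl8 (604) led, and Ccl12 (456), Ccl9 (345), Ccl4 (199), Ccl3 (195), Ccl5 (35.6) and Ccl24 (19.5) followed. In this order the samples of Ccl7 and Ccl6, of Ccl2 and Ccl8, of Ccl12 and Ccl9 and of Ccl4 and Ccl3 overlapped. In AMPK-KO TAMs, Ccl8 (626) came first, with samples that overlapped those of Ccl6 (602), which in turn overlapped those of Ccl7 (592), and Ccl2 (398) came after them. Ccl7 was highest both in early-stage (904) and late-stage TAMs (611), and Ccl24 was lowest in all 4 groups. Ccl6 was at rank 3 of the 10 in early-stage TAMs at 609, with samples overlapping those of Ccl2 at 670.5, and at rank 5 in late-stage TAMs at 242, below Ccl12 at 374 and Ccl8 at 267.

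**Figure D1:**
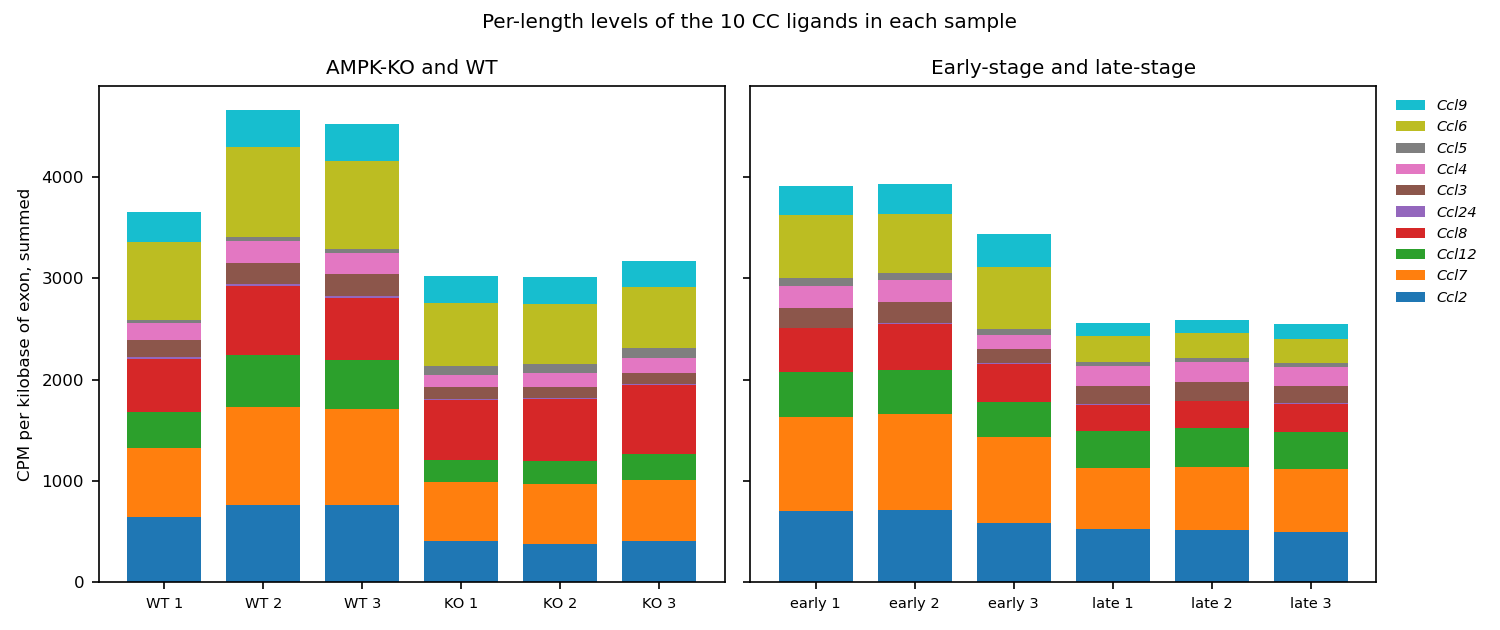
Level of each CC ligand in every sample as CPM per kilobase of exon (y axis, linear, from 0), stacked, with AMPK-KO and WT samples on the left and early-stage and late-stage samples on the right. The stacks of all AMPK-KO samples are lower than those of all WT samples, the late-stage stacks are lower than the early-stage ones, and the red Ccl8 segment is about as tall in AMPK-KO (mean 626) as in WT (604).

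The members together took 0.438 to 0.526% of all counts in WT and 0.349 to 0.359% in AMPK-KO samples. They took 0.402 to 0.436% in early-stage and 0.256 to 0.263% in late-stage samples. In neither experiment did the groups overlap. The makeup of the set also differed: as a share of the per-length sum, Ccl5 was 0.828% ± 0.052 (SD, n = 3) in WT and 3.08% ± 0.077 in AMPK-KO, and Ccl8 was 14.1% ± 0.50 and 20.4% ± 0.94. From early to late stage the share of Ccl6 went from 16.3% ± 1.44 to 9.44% ± 0.27, while that of Ccl12 went from 10.9% ± 0.93 to 14.6% ± 0.33 and that of Ccl3 from 4.72% ± 0.55 to 6.90% ± 0.15. Fewer cells of a type that makes a transcript and less of that transcript per cell cannot be told apart in such bulk samples.

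The genotype comparison asks which transcripts depend on AMPK in TAMs. Of the 10 ligands, 8 were lower in AMPK-KO, 1 was higher and 1 did not pass the test, with a call taken at an adjusted p under 0.05 in edgeR's quasi-likelihood test over 17532 genes. Of all genes tested, 9.78% were called lower, 11.3% higher and 21.1% in either direction. The median log2 fold change of the members was −0.55, beside −0.0037 over all genes tested. For 9 members the WT and AMPK-KO samples did not overlap, as was so for 37.2% of all genes tested. WT replicate 1 was the lowest WT sample for 9 of the 10 members, all but Ccl24, and without it the same number of members, 8, was lower.

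**Figure D2:**
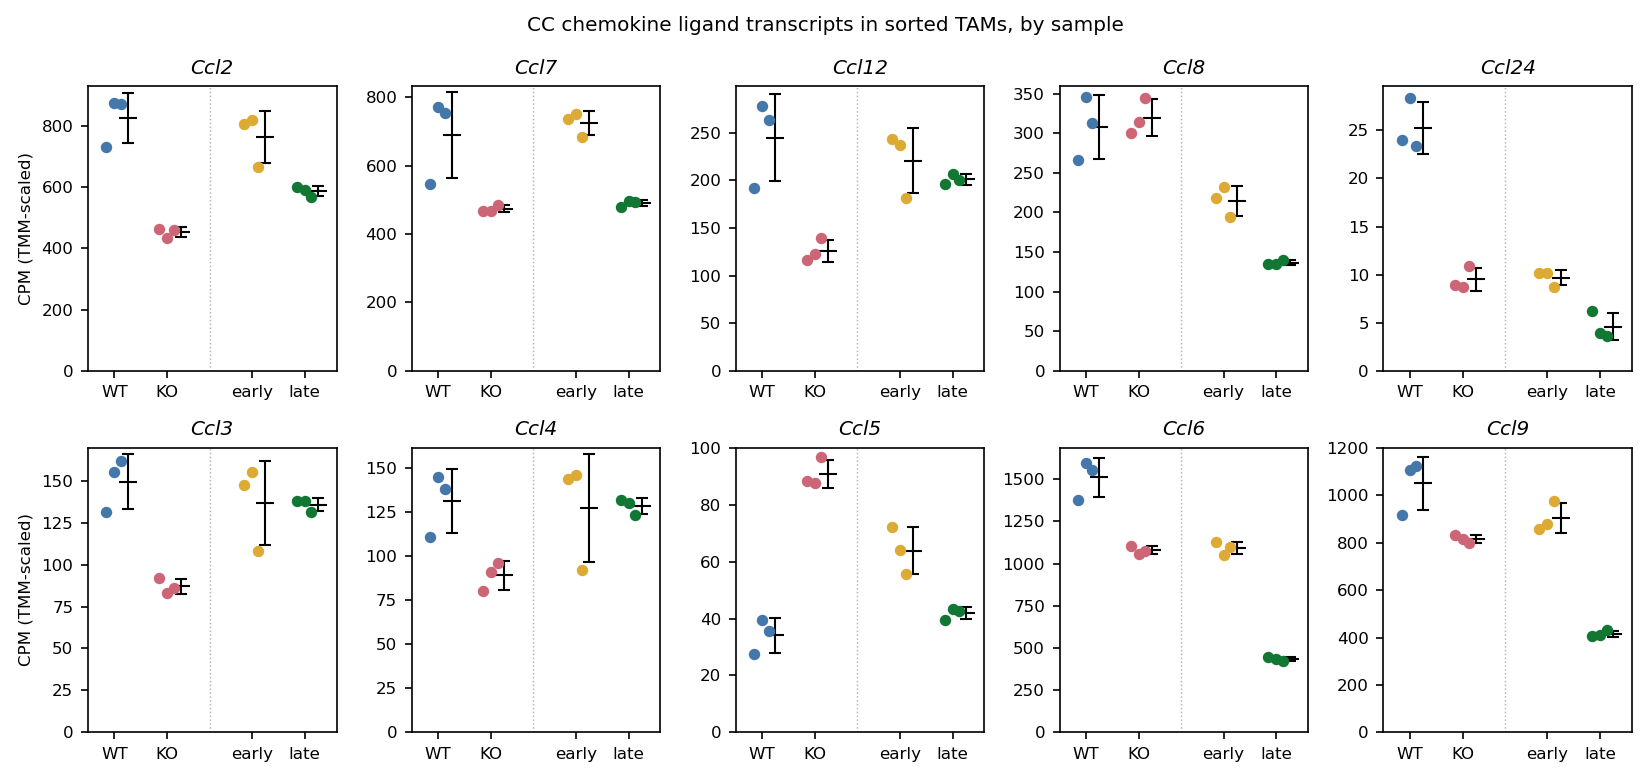
CPM scaled by TMM (y axes, linear, from 0) of each CC ligand in each of the 12 samples; points are samples and the horizontal mark with bars is the mean ± SD of 3 samples. The dotted line separates the genotype from the stage experiment, which were scaled separately. Ccl5 is the member whose AMPK-KO points all lie above the WT points, at 87.7 to 96.6 against 27.4 to 39.5.

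Among the ligands of Ccr2, all 3 were lower in AMPK-KO. Ccl2, the main attractant of monocytes, was at 730.0, 873 and 870.4 CPM in WT replicates 1 to 3 and at 464, 434 and 461 in AMPK-KO. Every AMPK-KO sample was below every WT sample, and Ccl2 fell by 0.86 on the log2 scale (SE 0.07, edgeR adjusted p = 1.2e-05) to 54.9% of the WT mean. Ccl12, its close relative in mice, was at 192, 278 and 264 CPM in WT and at 117, 122 and 139 in AMPK-KO. It fell by 0.96 (SE 0.12, edgeR adjusted p = 3.0e-04), to 51.5% of WT, again with no overlap. Ccl7 was at 545, 770.0 and 754 CPM in WT and 469, 468 and 485 in AMPK-KO, with the low WT replicate 1 still above the highest AMPK-KO sample. Its fall of 0.54 (SE 0.11) passed with an edgeR adjusted p of 0.0049.

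Ccl8, the ligand of Ccr8 next to Ccl12 on the chromosome, did not pass the test. Its samples were at 266, 346 and 313 CPM in WT and 300.0, 314 and 345 in AMPK-KO, so the groups overlapped. The log2 fold change was 0.05 with a 95% confidence interval of −0.15 to 0.25 (edgeR adjusted p = 0.74), an interval that leaves out falls as large as those of the 3 neighbors in its cluster. Ccl24, the eotaxin that acts on Ccr3, was the lowest member per length and had the largest fall. It was at 24.0, 28.3 and 23.4 CPM in WT (1729 to 2047 counts) and at 8.88, 8.76 and 10.9 in AMPK-KO (655 to 880 counts), well apart. Its log2 fold change was −1.41 (SE 0.12, edgeR adjusted p = 1.9e-05), which left 37.7% of the WT level.

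The macrophage inflammatory proteins Ccl3 and Ccl4 were lower in AMPK-KO. Ccl3 was at 131, 155 and 162 CPM in WT and 92.0, 83.0 and 86.3 in AMPK-KO. It fell by 0.78 (SE 0.08, edgeR adjusted p = 6.6e-05). Ccl4 was at 110.5, 145 and 138 CPM in WT and 80.0, 90.9 and 96.2 in AMPK-KO, and it fell by 0.56 (SE 0.10, edgeR adjusted p = 0.0029). In both genes all AMPK-KO samples were below all WT samples. The Ccr1 ligands Ccl6 and Ccl9 were lower as well. Ccl6 was at 1378, 1599 and 1556 CPM in WT and 1105, 1058 and 1076 in AMPK-KO, a fall of 0.48 (SE 0.06, edgeR adjusted p = 1.4e-04). Ccl9 was at 919, 1109 and 1123 CPM in WT and 833, 818 and 799 in AMPK-KO, a fall of 0.36 (SE 0.07, edgeR adjusted p = 0.0039). Ccl24 was the single member of the 8 whose fall exceeded 1 on the log2 scale, and together with Ccl5 it made 2 of 10 members past that size, beside 3.34% of all genes tested.

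Ccl5 (RANTES), an attractant of T cells that activated T cells and NK cells themselves also make, went the other way. Its samples were at 27.4, 39.5 and 35.6 CPM in WT and 88.3, 87.7 and 96.6 in AMPK-KO. No samples overlapped, and Ccl5 rose by 1.41 on the log2 scale (SE 0.11, edgeR adjusted p = 1.4e-05), to 266% of the WT mean. Markers of T cells and NK cells moved with it, as did other lists given below. Over all 13 marker lists, 38 of 68 markers tested were higher in AMPK-KO and 16 lower, beside 11.3% and 9.78% of all genes tested. All 7 T cell markers tested were higher in AMPK-KO, with summed levels of 81.2 to 99.7 CPM in WT and 166 to 172 in AMPK-KO, with none of the 7 at 0 throughout. All 7 NK cell markers were higher too, summing to 49.4 to 54.6 CPM in WT and 136 to 139 in AMPK-KO. The largest parts of these sums were Gzmb (mean 18.8 CPM in WT, 58.1 in AMPK-KO), Prf1 (15.5 and 39.9) and Gzma (7.75 and 16.5). These are genes that T cells can also express. The part of T cells and NK cells in the rise of Ccl5 was not tested.

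The stage comparison asks what changes in TAMs as the tumor grows. Of the 10 ligands, 7 were lower in late-stage than in early-stage TAMs and 0 were higher, and Ccl3, Ccl4 and Ccl12 did not pass the test. Of the 17630 genes tested, 4.88% were called lower, 4.31% higher and 9.18% in either direction. DESeq2 also called 7 lower and 0 higher, and at an unadjusted p under 0.05 edgeR found 0 higher as well. The median log2 fold change was −0.59, beside 0.0027 over all genes. The groups did not overlap for 7 members, as for 31.2% of all genes tested. Early-stage replicate 3 was the lowest early-stage sample for 8 of the 10 members, and for Ccl9 it was the highest.

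**Figure D3:**
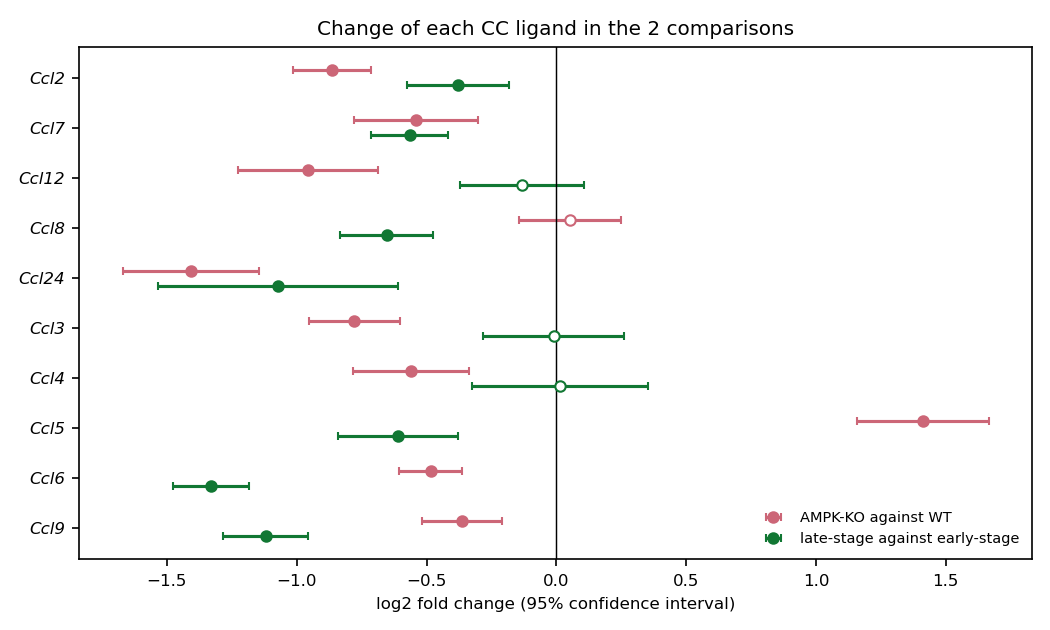
Log2 fold change of each CC ligand (x axis) with its 95% confidence interval from edgeR, for AMPK-KO against WT in red and late-stage against early-stage in green. Filled points have an adjusted p under 0.05. Ccl5 is at 1.41 in the first comparison and −0.61 in the second, Ccl8 is near 0 in the first, and Ccl3, Ccl4 and Ccl12 are near 0 in the second.

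The Ccr1 ligands Ccl6 and Ccl9 and the eotaxin Ccl24 each fell by over 1 on the log2 scale with stage. Ccl6 was at 1127, 1054 and 1097 CPM in early-stage and 448, 433 and 422 in late-stage samples. It fell by 1.33 (SE 0.07, edgeR adjusted p = 6.3e-06), to 39.8% of the early-stage mean. Ccl9 was at 857, 880.1 and 976 CPM in early-stage and 409, 409.5 and 432 in late-stage samples, a fall of 1.12 (SE 0.07, edgeR adjusted p = 2.7e-05). In both genes even the highest late-stage sample was far below the lowest early-stage one. Ccl24 was at 10.2, 10.1 and 8.75 CPM in early-stage and 6.24, 3.98 and 3.6 in late-stage samples, and fell by 1.07 (SE 0.21, edgeR adjusted p = 0.011). This call was lost without early-stage replicate 2 or late-stage replicate 2 or 3 (adjusted p from 0.055 to 0.064). Ccl6, Ccl9 and Ccl24 were the 3 members past that size, beside 1.87% of all genes.

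Among the Ccr2 ligands, Ccl7 and Ccl2 were lower at the late stage and Ccl12 was not called. Ccl7 was at 735, 752 and 685 CPM in early-stage and 479, 497 and 493 in late-stage samples, a fall of 0.56 (SE 0.07, edgeR adjusted p = 7.9e-04). Ccl2 was at 807, 818 and 664 CPM early and 599.6, 591 and 569 late, a fall of 0.38 (SE 0.09, edgeR adjusted p = 0.026). The groups of Ccl2 did not overlap, but the call was lost without early-stage replicate 2 or any of the 3 late-stage samples (adjusted p from 0.087 to 0.12) and, at 0.070, with no filter beyond 1 count. Ccl12 was at 243, 237 and 181 CPM early and 196, 207 and 200.2 late, with the low early-stage replicate 3 below all late-stage samples. Its log2 fold change was −0.13 (95% confidence interval −0.37 to 0.11, edgeR adjusted p = 0.49), and −0.26 without that replicate, where it passed with an adjusted p of 0.029.

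Ccl8 was at 218, 232 and 194 CPM in early-stage and 134, 135 and 140.2 in late-stage samples, with no overlap. It fell by 0.65 (SE 0.08, edgeR adjusted p = 0.0010). Ccl5 and the macrophage inflammatory proteins divided. Ccl5 was at 72.3, 63.9 and 55.5 CPM early and 39.4, 43.4 and 42.8 late, a fall of 0.61 (SE 0.10, edgeR adjusted p = 0.0060), and its groups did not overlap. Ccl3 was at 147, 155 and 108 CPM early and 138, 138 and 131 late, a log2 fold change of −0.01 (95% confidence interval −0.28 to 0.26, edgeR adjusted p = 0.97). Ccl4 was at 143, 146 and 91.7 CPM early and 132, 130.2 and 123 late, a log2 fold change of 0.02 (95% confidence interval −0.32 to 0.35, edgeR adjusted p = 0.97). In Ccl3 and Ccl4 the late-stage samples lay between early-stage replicate 3 and the other two.

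Across all 13 marker lists, 21 of 69 markers tested were lower at the late stage and 8 higher. Of all genes tested there, 4.88% were called lower and 4.31% higher. Beside the fall of Ccl5 at the late stage, 5 of 7 NK cell markers were lower and 0 higher. Their sums were 131 to 142 CPM early and 62.7 to 80.5 late. For T cells, 3 of 7 markers were higher and 0 lower (147 to 156 CPM early, 179 to 214 late). Beside the falls of Ccl2, Ccl7, Ccl6 and Ccl9, 4 of 5 monocyte markers were lower, with sums of 540.2 to 648 CPM early and 222 to 252 late. In the genotype experiment the same monocyte list went the other way from those ligands, with 3 of 5 markers higher, 0 lower, and sums of 502 to 534 CPM in WT and 823 to 853 in AMPK-KO. The melanoma cell list and the fibroblast list, cell types that can also make Ccl2 and Ccl7, summed to 1546 to 1667 and 801 to 878 CPM early and to 701 to 1133 and 393 to 555 late, with 4 of 6 and 3 of 6 markers lower and 0 higher in each. In AMPK-KO, 6 of 6 melanoma markers were lower (919 to 926 CPM in WT, 615 to 645 in AMPK-KO) and 6 of 6 fibroblast markers were higher (570.0 to 617 and 741 to 822). The part of these cell types in the ligands' changes was not tested.

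Members of the same cluster, not all of them adjacent, were set against each other as ratios of their counts, for 8 pairs in each experiment. Scaling between libraries does not enter such ratios. The pairs were chosen after their values were seen. The ratio of Ccl12 to Ccl8 was 0.724 to 0.842 in WT and 0.389 to 0.403 in AMPK-KO, and 0.934 to 1.12 in early-stage and 1.43 to 1.53 in late-stage samples. It was thus lower in every AMPK-KO sample than in any WT sample and higher in every late-stage than in any early-stage sample. The mean log2 ratio differed by −0.9995 between genotypes and by 0.53 between stages. Each had a two-sided exact permutation p of 0.10 (0.13 after Benjamini-Hochberg adjustment over the 16 ratios), the smallest that 3 against 3 samples allow. A p of 0.10 here only restates the lack of overlap. As the pairs were chosen with their values known, no p-value of these ratios measures chance. Of the single genes tested, 37.2% did not overlap between genotypes and 31.2% between stages. The share for ratios of other genes was not computed. Ccl6 and Ccl9 kept closer: their ratio was 1.38 to 1.5 in WT and 1.29 to 1.35 in AMPK-KO, and 1.12 to 1.32 early and 0.979 to 1.10 late. These groups did not overlap either (exact permutation p = 0.10 in each), but the mean log2 ratio differed by −0.12 and −0.21.

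Ccl3 and Ccl4, which encode the closely related MIP-1 proteins, had ratios of 1.07 to 1.19 in WT, 0.897 to 1.15 in AMPK-KO, 1.03 to 1.17 in early-stage and 1.05 to 1.07 in late-stage samples. The groups overlapped in both experiments (exact permutation p = 0.20 and 0.80). The ratio of Ccl5 to Ccl3 was 0.209 to 0.255 in WT and 0.960 to 1.12 in AMPK-KO, and 0.413 to 0.515 early and 0.286 to 0.326 late, with no overlap in either (exact permutation p = 0.10 in each). The ratio of Ccl2 to Ccl7 was 1.13 to 1.34 in WT and 0.926 to 0.991 in AMPK-KO, and 0.970 to 1.10 early and 1.15 to 1.25 late, again with no overlap (exact permutation p = 0.10 in each). That of Ccl2 to Ccl12 overlapped between genotypes, at 3.15 to 3.79 in WT and 3.31 to 3.98 in AMPK-KO (exact permutation p = 0.50). At the late stage it was 2.84 to 3.06, below the 3.32 to 3.66 of early-stage samples (exact permutation p = 0.10). The ratio of Ccl7 to Ccl8 was 2.05 to 2.41 in WT and 1.41 to 1.56 in AMPK-KO without overlap, and overlapped between stages (3.24 to 3.53 early, 3.52 to 3.68 late), and that of Ccl5 to Ccl9 separated the groups in both experiments.

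**Figure D4:**
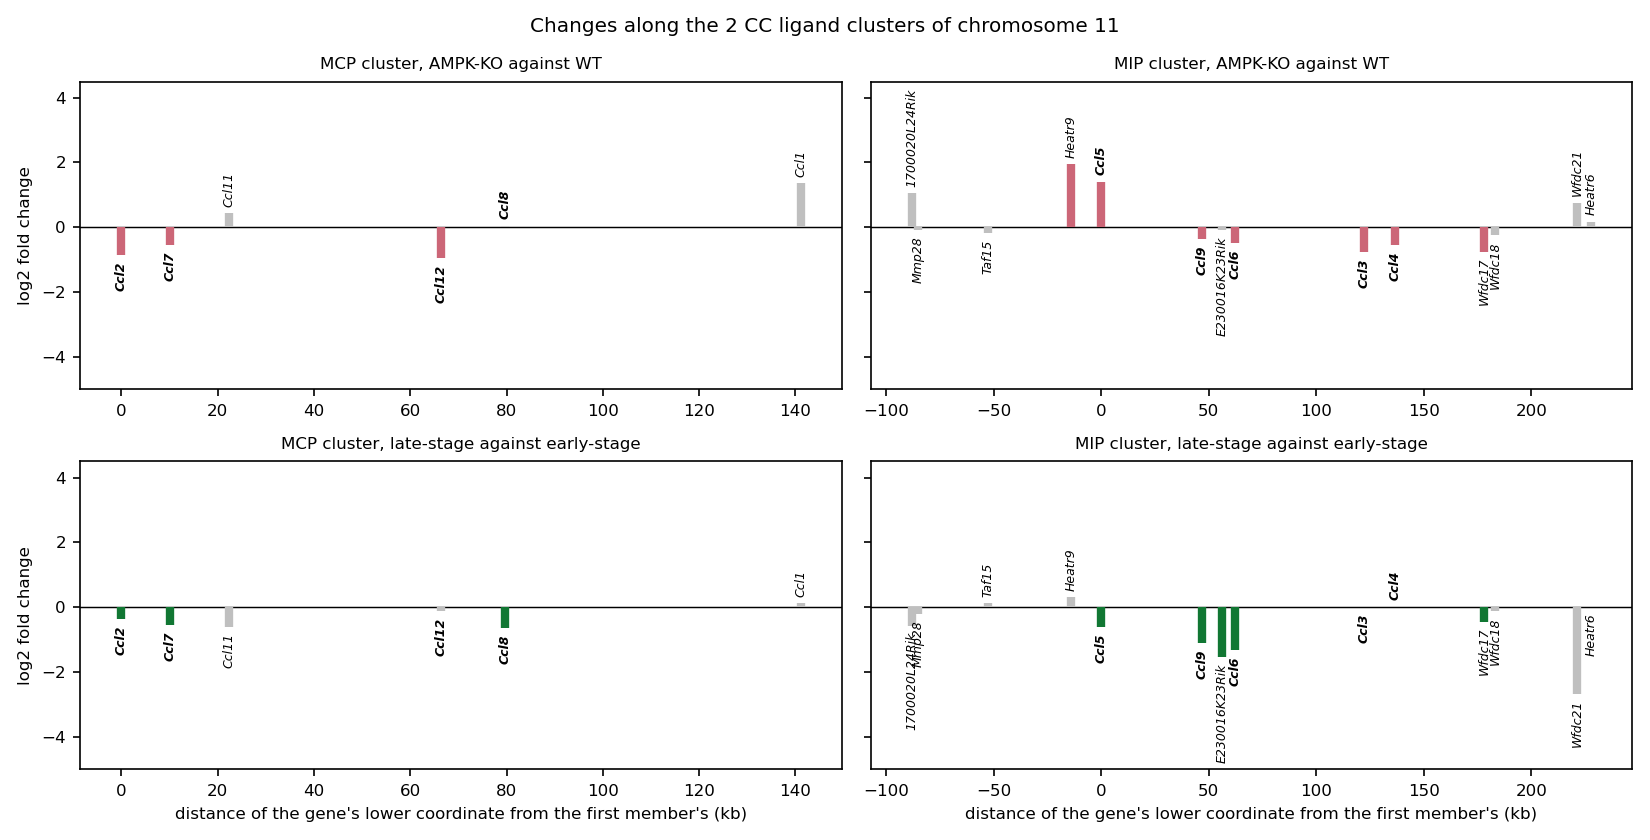
Log2 fold change (y axis) of the genes that were tested in both experiments along the 2 CC ligand clusters of chromosome 11 and 100 kb to either side, against the distance of the gene's lower coordinate from that of the cluster's first member in kb (x axis). Members are in bold, colored bars passed the test and gray bars did not. In the upper right panel Heatr9 and Ccl5 stand above 0 next to members that lie below it.

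Along the chromosome, Ccl5 lies at the end of its cluster, with Ccl9 47.1 kb and Ccl6 62.1 kb on. Of the 18 annotated genes that are not CC ligands within this cluster or 100 kb of it, 9 were tested in each experiment. In AMPK-KO, 1 of them was higher: Heatr9 (chr11:83511736-83522175, minus strand), whose lower coordinate lies 14.0 kb before that of Ccl5. Heatr9 was at 0.243 CPM ± 0.155 in WT and 0.95 ± 0.266 in AMPK-KO (5 to 93 counts a sample, log2 fold change 1.95, edgeR adjusted p = 0.034). Wfdc17, a small secreted protein gene of macrophages on the far side of Ccl4, was lower in AMPK-KO (189 CPM ± 34.1 in WT and 112 ± 12.8, log2 fold change −0.75, edgeR adjusted p = 0.0016) and also in late-stage TAMs (−0.45, edgeR adjusted p = 0.011). E230016K23Rik, a noncoding transcript that overlaps Ccl6 on the opposite strand, was at 4.47 CPM early and 1.53 late (log2 fold change −1.55, edgeR adjusted p = 0.0043) and at 4.90 in WT and 4.6 in AMPK-KO (edgeR adjusted p = 0.76). Its exons overlap those of Ccl6 by 0 bases, so the pair shares no exonic base. The sources do not say whether counting used strand, so reads from outside the exons of either gene may have been counted for its partner. Around the Ccl2 cluster, 1 of 4 such genes was tested in the genotype experiment and 0 in the stage experiment, and Gm17268, which overlaps Ccl2 on the opposite strand, had 0 counts in all libraries.

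Of 12 other CC ligands, 6 passed the filter in each experiment. In AMPK-KO, 0 of 6 were called by edgeR, 3 had an unadjusted p under 0.05 and DESeq2 called 1, Ccl1. Their edgeR values were Ccl1 (log2 fold change 1.36, adjusted p = 0.074), Ccl17 (0.63, 0.077), Ccl22 (0.23, 0.070), Ccl11 (0.44, 0.51), Ccl25 (−0.42, 0.23) and Ccl27a (−0.45, 0.58). In late-stage TAMs Ccl22, a ligand of Ccr4 that attracts regulatory T cells, was the 1 of 6 called. It rose from 49.6 CPM ± 0.97 to 75.6 ± 8.31 (log2 fold change 0.61, edgeR adjusted p = 0.0032), against the falls of 7 members, and the other 5 had adjusted p from 0.31 to 0.89. Ccl11, the eotaxin between Ccl7 and Ccl12, was at 0.701 CPM ± 0.27 in WT and 0.954 ± 0.31 in AMPK-KO (29 to 93 counts a sample).

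**Figure D5:**
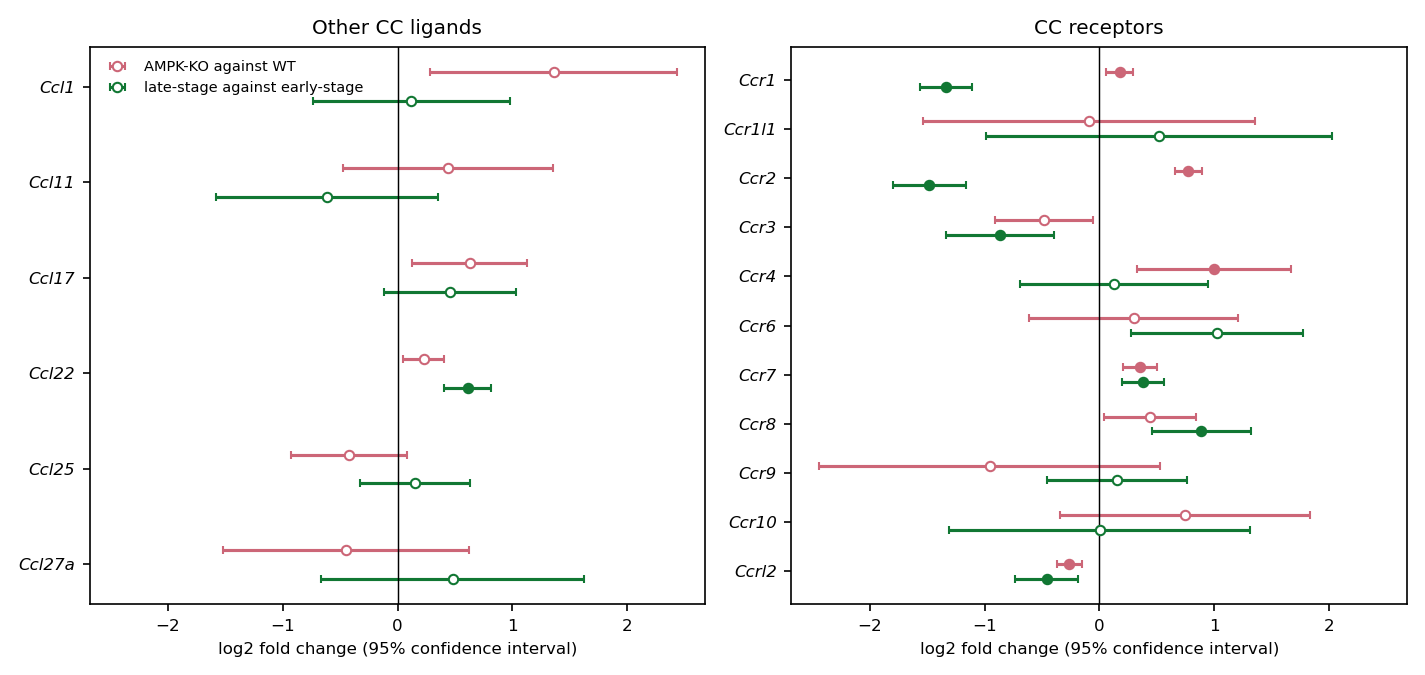
Log2 fold change (x axis) with its 95% confidence interval of the other CC ligands (left) and the listed CC receptors (right) that passed the filter in both experiments, for AMPK-KO against WT in red and late-stage against early-stage in green. Filled points have an edgeR adjusted p under 0.05. Ccr2 lies at 0.77 in the first comparison and −1.48 in the second.

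In AMPK-KO, Ccr2 was higher while its ligands Ccl2, Ccl7 and Ccl12 were lower, and Ccr1 was higher while of its ligands Ccl3, Ccl6 and Ccl9 were lower and Ccl5 was higher. Of 14 CC receptors listed, 11 were tested, 4 were higher and 1 was lower. Ccr2, which answers Ccl2, Ccl7 and Ccl12, was at 237 CPM ± 9.15 in WT and 405 ± 20.4 in AMPK-KO (log2 fold change 0.77, edgeR adjusted p = 4.3e-06). Ccr1 was at 165 CPM ± 5.87 and 187 ± 9.04 (0.18, edgeR adjusted p = 0.041). Ccr7 (0.35) and Ccr4 (0.99) were higher too, with edgeR adjusted p of 0.0039 and 0.040. Ccrl2, an atypical receptor that does not signal, was lower (−0.26, edgeR adjusted p = 0.0035), and Ccr3, Ccr6, Ccr8, Ccr9, Ccr10 and Ccr1l1 had adjusted p from 0.11 to 0.94.

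With stage, 2 of 11 receptors were higher and 4 lower. Ccr1 was at 171 CPM ± 23.8 in early-stage and 67.8 ± 2.57 in late-stage TAMs (log2 fold change −1.33, edgeR adjusted p = 6.5e-05), beside falls of its ligands Ccl5, Ccl6 and Ccl9 and a log2 fold change of −0.01 for Ccl3, which was not called. Ccr2 was at 288 CPM ± 54.1 early and 103 ± 15.3 late (−1.48, edgeR adjusted p = 2.7e-04). Ccr3 (−0.87) and Ccrl2 (−0.46) were also lower, with edgeR adjusted p of 0.032 and 0.048. Ccr8, the receptor of Ccl8, was higher at the late stage (2.78 CPM ± 0.51 and 5.13 ± 0.54, 0.89, edgeR adjusted p = 0.020), as was Ccr7 (0.38, edgeR adjusted p = 0.020). Ccr4, Ccr6, Ccr9, Ccr10 and Ccr1l1 had edgeR adjusted p from 0.092 to 1.00. Ccr2 is also one of the 5 monocyte markers.

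Of 19 genes that carry or end the receptors' signal, AMPK-KO had 8 higher and 1 lower, with a median of 0.15. Grk3, a kinase that desensitizes occupied receptors (1.03, edgeR adjusted p = 9.7e-06), Plcb2, a phospholipase (0.52), Grk2 (0.25) and the arrestin Arrb1 (0.37) were higher. Rgs1, which shortens G protein signals, was lower (−0.50, edgeR adjusted p = 3.8e-05). With stage, 4 of 19 were higher, namely Pik3r5 (0.42), Grk3 (0.69), Arrb1 (0.31) and Rgs2 (0.27), and 1 was lower, Grk5 (−0.75, edgeR adjusted p = 0.0012). Of 10 proteases tested that can trim chemokines, 7 were higher and 1 lower in AMPK-KO. Among them were Mmp14 (0.69), Mmp13 (0.54), Mmp8 (0.54) and Dpp4 (0.79), which clips the N terminus of Ccl5, with edgeR adjusted p of 4.1e-06 to 0.0012, and the macrophage elastase Mmp12 was lower (−0.35). With stage, Mmp12 (0.52) and Mmp13 (0.48) were higher and Mmp9 (−1.22), Dpp4 (−0.59) and Mmp14 (−0.29) lower.

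Transcription factors that act on chemokine genes were followed in 3 lists, which also hold inhibitors, receptors, kinases and other genes that are not transcription factors. Of 18 NF-κB factors and inhibitors, 10 were higher in AMPK-KO, among them the inhibitor Nfkbie (0.67), Nfkb1 (0.40), Rel (0.53) and Nfkbiz (0.34). There, 2 were lower: Nfkbia (−0.32), also an inhibitor, and Zfp36 (−0.21), which speeds the decay of cytokine mRNA. With stage, 3 were higher (Tnip1 0.32, Nfkbid 0.77, Nfkb1 0.26) and 2 lower (Tnip3 −0.94, Nfkbie −0.52). Of 8 interferon-responsive factors, 7 were higher in AMPK-KO and 0 lower, with a median of 0.39. Irf1, at 144 CPM ± 1.26 in WT and 299 ± 11.1 in AMPK-KO, had the largest rise of the list (1.06, edgeR adjusted p = 3.3e-07), and Irf8 (0.40), Irf7 (0.38) and Stat2 (0.46) were also higher. With stage, 0 of these 8 were called by edgeR or DESeq2, and 2 were lower at an unadjusted p under 0.05 in edgeR. Of 15 genes of the IL-4 and STAT6 axis, 8 were higher in AMPK-KO, with the smallest adjusted p in Pdcd1lg2 (2.09), Retnla (1.48), Mgl2 (0.93) and Il2rg (0.54), and 1 was lower, Mrc1 (−0.51). With stage, 1 was higher, Jak3 (0.53), and 7 were lower, with the smallest adjusted p in Arg1 (−1.33), Chil3 (−1.81), Pdcd1lg2 (−1.22) and Mrc1 (−0.62).

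Of the remaining marker lists, some moved with the groups and others did not. In AMPK-KO, macrophage markers had 2 of 9 higher and 1 lower (12090 to 13477 CPM in WT, 12279 to 12650 in AMPK-KO), and dendritic cell markers 6 of 7 higher (54.2 to 59.7 and 87.3 to 96.6). B cell markers had 1 of 5 higher and 4 lower (30.9 to 32.5 and 19.9 to 22.1). Erythroid markers had 4 of 5 lower (22.5 to 25.1 and 7.67 to 9.17). Endothelial markers had 2 of 4 higher and 1 lower (56.2 to 68.6 and 125 to 128). The higher ones were Pecam1, with a mean of 37.5 CPM in WT and 91.2 in AMPK-KO, and Kdr (12.5 and 24.4). Cdh5 was the lower one (3.74 and 2.53). Neutrophil markers had 2 of 4 higher at sums of 1.62 to 2.06 and 5.06 to 6.19 CPM, with Ly6g and Ngp at 0 in every sample, and eosinophil (1 of 1) and basophil or mast cell markers (1 of 2 higher) summed to at most 2.46 and 3.21 CPM. With stage, 1 of 9 macrophage markers was higher (9381 to 11690 CPM early, 12388 to 12515 late), dendritic cell markers had 1 higher and 1 lower (56.9 to 66.4 and 55.2 to 59.7), and B cell markers 3 of 5 higher (37.3 to 41.8 and 57.5 to 82.9). Neutrophil markers had 2 of 3 lower (2.72 to 3.92 and 0.464 to 0.974), endothelial and erythroid markers 1 of 5 lower each (97.4 to 99.1 and 86.3 to 90.4; 13.9 to 18.5 and 12.1 to 12.5), and eosinophil and basophil or mast cell markers 0 of 2 each (0.701 to 1.18 and 1.07 to 1.52; 1.16 to 2.21 and 1.44 to 1.89). Their part in the members' changes was not tested.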

How the data were processed

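Total RNA of 12 sorted TAM samples in 4 groups of 3 was sequenced, and the authors mapped reads with HISAT2 and counted them per gene with featureCounts. The deposited values are raw counts in 1 table per experiment. The submitters' processing notes also name FastQC, DESeq2 and mm10/GRCm38, while the study's text writes GRCh38 for the mouse genome. Tool versions and the handling of strand and multiply mapped reads are not given in the sources used here, so reads shared by related genes cannot be resolved. Coordinates and exon lengths came from GENCODE M21, which 54349 identifiers matched with their version.

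Each table was filtered with filterByExpr, scaled by TMM and tested in edgeR 4.0.16 (R 4.3.3) by its quasi-likelihood F-test with no covariate. Adjusted p-values are Benjamini-Hochberg values over all genes tested. CPM were computed with TMM-scaled library sizes, and per-length values were divided by exon union length. Promoter alignments used Biopython 1.88 and ratio tests SciPy 1.17.1. Scripts were tested on simulated data. Alternatives were other scalings, DESeq2 1.42.0, other filters, a replicate block and leaving out each sample. Named genes were all 10 members, the tested genes near them, every other listed CC ligand and receptor that passed the filter, and of each other list at most the 4 called genes with the smallest adjusted p in each direction. The members and lists (7 context and 13 marker lists) were chosen with earlier results of these data known, and some genes and a motif that belonged to them are not reported here. Totals were 71019494 to 84470374 counts a sample.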

Additional observations from a re-analysis of the deposited data

How the results depend on the processing

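In the genotype experiment, 118 of 120 member values under the 12 alternatives kept their direction and side of the threshold. The other two were Ccl8, at −0.046 without WT replicate 1 and −0.0070 without AMPK-KO replicate 3 in a range that reached 0.14. The count of 8 lower members was also found in each of the 6 fits that left out 1 sample. In the stage experiment 105 of 120 member values kept both. Leaving out 1 sample gave 5 to 8 lower members there, 5 where Ccl2 and Ccl24 were both lost and 8 without early-stage replicate 3. Ccl3 turned to 0.0069 with the replicate block, 0.050 and 0.087 without early-stage replicates 1 and 2 and 0.013 without late-stage replicate 3 (lowest −0.16). Ccl4 turned to −0.17 without early-stage replicate 3 and −0.0030 without late-stage replicate 1 (highest 0.12). None of these turned values passed the test. With a log2 fold change above 1 also asked for, 1 member was lower in AMPK-KO and 3 at the late stage, and the same counts came from DESeq2's unadjusted p with that size.

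Over all genes, asking for that size gave 360 higher and 225 lower genes in AMPK-KO and 106 and 223 at the late stage. DESeq2's unadjusted p with that size gave 642 and 498 in AMPK-KO and 512 higher and 485 lower at the late stage. DESeq2 with adjusted p gave 1176 higher and 1271 lower at the late stage, and no filter beyond 1 count gave 429 higher and 507 lower. Leaving out 1 sample gave 1334 to 2102 higher and 1068 to 1937 lower genes in AMPK-KO, and 284 to 1514 and 369 to 1321 at the late stage, where the highest counts came without early-stage replicate 1. Apart from fewer samples or genes and the added size limit, the cause was not tested. Other scalings moved the median of all genes by at most 0.014. Deviations of samples with the same replicate number correlated at −0.0039 to 0.042 and 0.013 to 0.026, so the numbers were not taken to pair them. The replicate block gave 2029 higher and 1833 lower genes in AMPK-KO, and 674 and 743 at the late stage, and changed no call of a member (1 higher and 8 lower, 0 and 7).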
